A study of Homo sapiens with 9 samples.

Results

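The unedited and the edited form of the microRNA miR-376a* were compared directly, over every probe set of the array, in U87 cells, an established human glioma line. The comparison rests on 6 of the series' 9 arrays. Of these, 3 are from cells that received the A form (miR-376a*A, unedited) and 3 from cells that received the G form (miR-376a*G, edited). The name of the edited form gives a G, whereas editing itself leaves inosine, which pairs like G. All 9 cultures were transfected with 50 nM of a miRNA duplex through Lipofectamine RNAiMAX and harvested 24 h later, so the 2 groups share the carrier, the dose and the time and differ, per the labels, in the duplex alone. The 3 arrays of a control miRNA took no part in the main test and are given as levels. They entered an alternative fit, quoted where it is named. The labels call the replicates biological and say no more, so p-values measure the spread between these 3 cultures a form. Each form was studied in 1 cell line, at 1 dose and 1 time, as a duplex supplied from outside.

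A microRNA guides a silencing complex to messenger RNAs that pair with its seed, a short stretch near its 5′ end, and the paired transcripts are usually translated less and degraded sooner. The ADAR enzymes turn adenosine in double-stranded RNA into inosine, which pairs like G, so editing inside a seed gives the microRNA another set of possible targets. The miR-376 family lies in a cluster on chromosome 14 and is a known substrate of this editing in the brain, and published work on glioma reports that the unedited form of miR-376a* accumulates in these tumours. RefSeq lists the strand formerly called miR-376a* as hsa-miR-376a-5p. Its sequence is shown because the 2 forms differ by a base of its seed, and the 5p strands of the 3 related genes are shown because they are its nearest relatives. Capitals mark the seed, bases 2 to 8 from the 5′ end.
hsa-miR-376a-5p: gUAGAUUCuccuucuaugagua
hsa-miR-376a-2-5p: gGUAGAUUuuccuucuauggu
hsa-miR-376b-5p: cGUGGAUAuuccuucuauguuu
hsa-miR-376c-5p: gGUGGAUAuuccuucuauguu
On build GRCh38.p14 the mature strand of hsa-miR-376a-5p lies at chr14:101040788-101040809 on the plus strand. Aligned to it with a shift of 1 base and numbered from its 5′ end, hsa-miR-376b-5p and hsa-miR-376c-5p differ by the substitutions A3G, U7A, C8U, A19U and G20U. The strand hsa-miR-376a-2-5p differs by C8U, A19G and G20U. No other of the 2370 mature miRNAs in the RefSeq table holds the seed of hsa-miR-376a-5p, whereas hsa-miR-376b-5p and hsa-miR-376c-5p share 1 seed. The labels do not give the sequence of either duplex, so the edited sequence is not printed.

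After probe sets with a mean log2(signal + 16) below 4.78 were left out and each gene was represented by its brightest probe set, 20130 features were tested, 13721 of them genes with a single symbol. A feature passed when limma's Benjamini-Hochberg adjusted p over all features was under 0.05. In all 5448 features passed (27.1%), of which 2920 were higher (14.5%) and 2528 lower (12.6%) with miR-376a*A than with miR-376a*G. When every array was centred on its median the split became 2324 higher and 3202 lower, so the side of the small differences depends on the scaling. Most differences were small: 4184 of the 5448 were under 0.5 on the log2 scale, and 192 features (0.954%) differed at least 2-fold, 98 higher (0.487%) and 94 lower (0.467%). The 3 arrays of each form lay apart in all 192, and in 8474 (42.1%) of the features tested. With 1 array left out at a time, between 3982 and 5400 features passed. The arrays of a form are called the first, the second and the third by their replicate numbers.

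**Figure D1:**
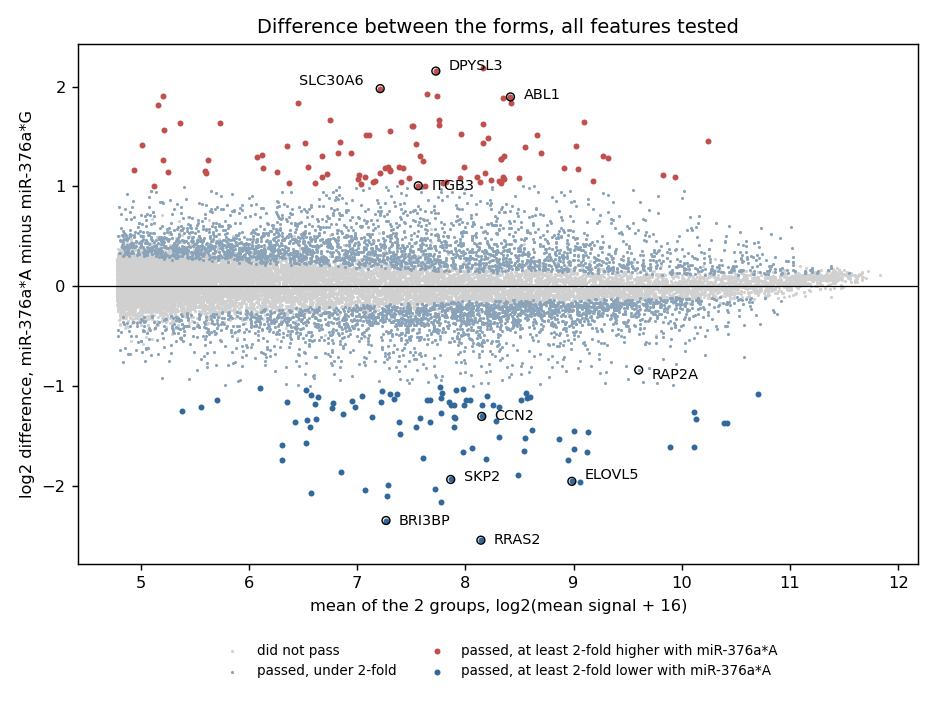
The log2 difference, A form minus G form (vertical axis), is plotted against the mean log2(signal + 16) of both groups (horizontal axis) for the 20130 features tested. The 98 features higher and the 94 lower by 2-fold or more with miR-376a*A stand on both sides of a dense band around 0, which is wider at low signal.

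The 6 arrays had a like spread around their group mean, of 0.101 to 0.114 (SD, log2). Arrays of a form correlated with r between 0.9935 and 0.9948 and arrays of different forms between 0.9861 and 0.9880 over all probe sets. Each of the 9 arrays had a trimmed mean signal of 100.01, so that value says nothing of their quality. The median signal was 19.6 to 20.4 with miR-376a*A and 18.0 to 19.2 with miR-376a*G. The median SE of a log2 difference was 0.0853, with 3 arrays per form. In cells labelled as U87, the mesenchymal and glioma markers VIM, CD44, LGALS1 and S100A6 read at least 1821 on each of the 6 arrays, the level of the dimmest, CD44. They did not pass between the forms. The mature astrocyte marker GFAP did not reach the filter, but 4 of the 8 markers of that cell type did. Of these 4, 1 passed as higher with miR-376a*A and 0 as lower. The summed signal of the 4 was 1550 to 1610 with miR-376a*A, 1547 to 1568 with miR-376a*G and 1261 to 1333 in the control. Of all 11 tested mesenchymal and glioma markers 4 passed as higher with miR-376a*A (CAV1, FN1, CHI3L1 and TNC, named after their values were seen) and 0 as lower. At an unadjusted limma p under 0.05 these counts were 6 and 0, beside 7795 of all 20130 features in either direction. The summed signal of the 11 markers was 19784 to 21788 with miR-376a*A, 17470 to 18501 with miR-376a*G and 17785 to 19545 in the control. The part of these markers in other results was not tested. Bulk RNA cannot tell fewer cells in some state from less RNA per cell.

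Among genes with a single symbol, the largest difference on the lower side with the unedited form was in RRAS2, a RAS-family GTPase. It had signals of 100.2, 101 and 103 with miR-376a*A and 633, 699 and 668 with miR-376a*G. The groups lay far apart, at a log2 difference of -2.54 ± 0.051 (SE, limma adjusted p = 1.09e-08), or 5.82-fold on the log2(signal + 16) scale used for all folds. Its control arrays read 540.3, 601 and 559, close to the miR-376a*G level, and both other probe sets of the gene passed in the same direction, at -2.71 and -1.89. BRI3BP, a membrane protein gene, read 59.6, 53.4 and 44.3 with miR-376a*A and 308, 328 and 355 with miR-376a*G, a difference of -2.34 ± 0.088 (SE). TVP23B, a Golgi membrane protein gene, read 81.9, 85.6 and 94.9 against 413, 459 and 465, a difference of -2.16 ± 0.067 (SE). For both genes the control arrays (354, 374 and 338, and 436, 355 and 472) lay with the miR-376a*G arrays.

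RASSF3, which encodes a RAS-association domain protein, took a different position. It read 37.4, 25.8 and 28.9 with miR-376a*A and 166, 189.6 and 184 with miR-376a*G, a difference of -2.07 ± 0.098 (SE), and the control arrays at 95.6, 65.5 and 81.8 fell between the forms. Its other probe sets gave -1.18 and -1.02 and both passed. PLPPR4, a brain lipid phosphatase-related gene, read 112, 76.3 and 77.6 against 368, 406 and 449.8, a difference of -2.03 ± 0.121 (SE). Here the control arrays, at 92.1, 95.4 and 96.7, lay with miR-376a*A, so the miR-376a*G arrays were the ones that stood apart. COMMD2, a COMM-domain protein gene, read 55.7, 47.1 and 47.7 against 238, 251 and 281, a difference of -2.04 ± 0.079 (SE), and its second probe set gave -2.27.

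SKP2, the F-box protein that directs the cell cycle inhibitor p27 to degradation, read 93.5, 104 and 113 with miR-376a*A, 453, 444 and 419.8 with miR-376a*G and 588, 458 and 444 in the control. Its difference was -1.93 ± 0.066 (SE), and both other probe sets passed as lower. Other genes of the 15 largest falls encode TOR1B, a torsin ATPase of the endoplasmic reticulum (-1.99 ± 0.059, SE), YRDC, which takes part in a tRNA modification (-1.89 ± 0.050, SE), the spliceosome protein SNRPA1 (-1.74 ± 0.048, SE), SEC23B of the COPII vesicle coat (-1.73 ± 0.058, SE) and the mitochondrial carrier SLC25A43 (-1.71 ± 0.061, SE). VMA21, needed to assemble the proton pump of vacuoles, and ELOVL5, a fatty acid elongase, differed by -1.96 ± 0.048 and -1.95 ± 0.051 (SE) on 1 probe set each. The other probe set of VMA21 gave 0.15 and the 3 others of ELOVL5 gave -0.02 to 0.08, and none of these passed. The zinc transporter gene SLC39A10 completes the 15 and is described with its family.

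Among genes with a single symbol, the largest difference on the higher side with the unedited form was in DPYSL3, a cytoskeletal protein of neuronal growth cones. It read 436, 443 and 411 with miR-376a*A and 98.3, 81.7 and 74.0 with miR-376a*G, a difference of 2.15 ± 0.083 (SE, limma adjusted p = 1.28e-07, 4.45-fold). The control arrays, at 500.1, 436 and 435, matched the miR-376a*A level. ABL1, a non-receptor tyrosine kinase, read 661, 637 and 630.4 against 164, 154 and 166, a difference of 1.90 ± 0.048 (SE). ACVR1, a type I receptor for bone morphogenetic proteins, read 443, 367 and 386 against 84.0, 96.7 and 103, a difference of 1.91 ± 0.083 (SE). For both the control arrays (726, 635 and 600.1, and 524, 399 and 454) again lay with miR-376a*A.

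KIRREL1, a cell adhesion protein of the nephrin group, read 415, 349 and 360.3 with miR-376a*A and 75.3, 90.7 and 94.6 with miR-376a*G, a difference of 1.93 ± 0.087 (SE). PTPRG, a receptor tyrosine phosphatase, read 184, 175 and 168 against 42.3, 47.8 and 43.2, a difference of 1.67 ± 0.068 (SE), although 1 of its 3 other probe sets passed and they ranged from -0.03 to 0.95. CDC26, a subunit of the anaphase-promoting complex, differed by 1.89 ± 0.059 and UBP1, a transcription factor, by 1.83 ± 0.055 (SE). WBP1L, RIDA, GPR157 and CYB5R4 were 3.04-fold to 3.16-fold higher, with control means of 399 ± 35.5, 468 ± 95.8, 307 ± 24.5 and 337 ± 5.73 (SD, n = 3) against 368 ± 18.0, 487 ± 3.79, 301 ± 22.2 and 303 ± 12.8 with miR-376a*A. The other probe set of CYB5R4 gave 0.23 and did not pass. DISP2, DEPP1 and HOXC5 were dim with miR-376a*G (3.20, 2.91 and 3.10, 27.1, 8.77 and 8.29, and 11.2, 2.50 and 2.86), close to or below the offset of 16, so their differences of 1.91 ± 0.092, 1.63 ± 0.194 and 1.56 ± 0.202 (SE) understate a fold on the signal scale. The other tested probe set of DEPP1 gave 0.20 and did not pass. The zinc transporter gene SLC30A6 is described with its family.

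**Figure D2:**
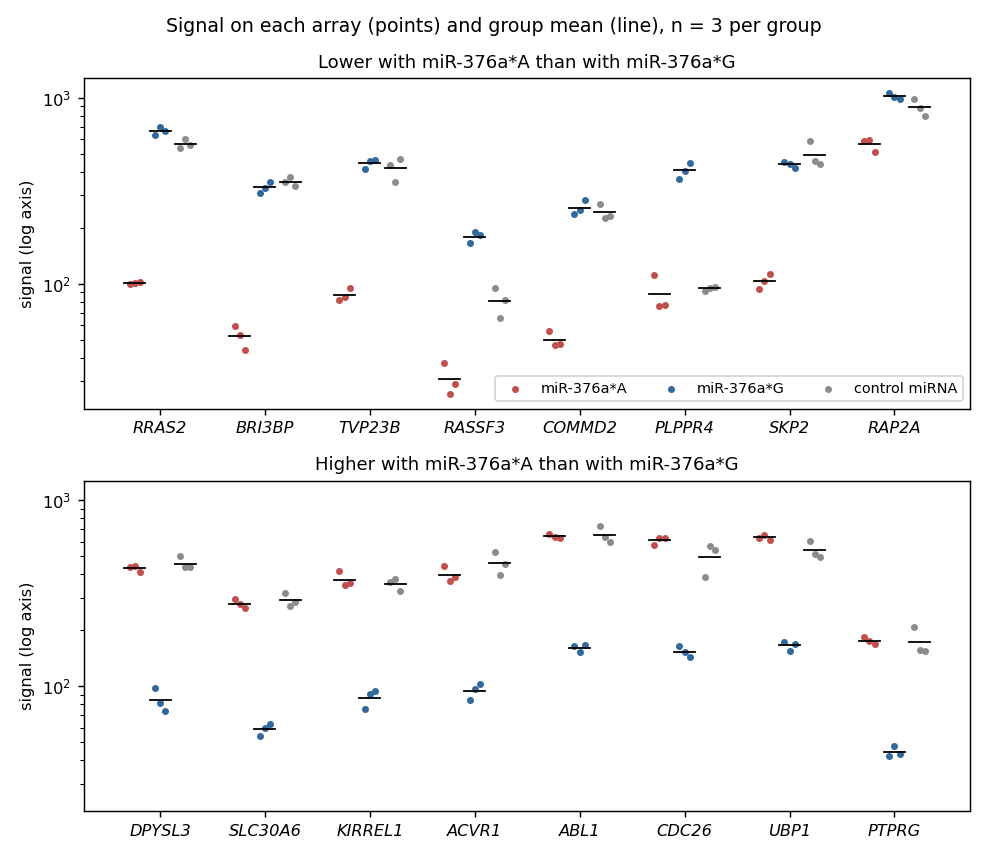
Signals of 16 named genes on a log axis, with 1 point per array, a line at each group mean and n = 3 per group; red is miR-376a*A, blue miR-376a*G and grey the control miRNA. In the upper panel the miR-376a*A points are the lowest group of 3 for all 8 genes except PLPPR4, where they overlap the control, and in the lower panel the miR-376a*G points lie under both other groups for all 8.

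Many of the calls were seen by more than 1 probe set. Of 4222 named genes that passed, 2499 had another tested probe set. In 1346 of these another one passed in the same direction, against 76 where another passed in the opposite direction. All other probe sets shared the sign of the call in 1828 of the 2499, and in the rest at least 1 did not. In 748 genes all of at least 2 tested probe sets passed the same way, 398 lower and 350 higher with miR-376a*A. By the median over probe sets, the 10 leading genes on the lower side were RRAS2, COMMD2, SKP2, SEC23B, YRDC, GFPT1, SCML1, BZW1, FGF2 and ERLIN2. FGF2, a mitogen for glial cells, read 133, 116 and 129 with miR-376a*A and 381, 469 and 448 with miR-376a*G, with control arrays at 407, 279.8 and 318. GFPT1, which starts the hexosamine pathway, read 222, 216 and 229.8 against 625, 616 and 646. The 4 probe sets of GFPT1 all passed as lower, at -2.00 to -0.48.

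On the higher side the 10 leading genes by that median were DPYSL3, PABIR2, EMP2, HDAC4, PRRC1, PRNP, PNPLA3, SALL1, SOCS5 and AASDHPPT. HDAC4, a class IIa histone deacetylase, read 126, 114 and 111 with miR-376a*A and 33.1, 30.8 and 38.9 with miR-376a*G, a difference of 1.41 ± 0.086 (SE), and 164, 142 and 142 in the control. EMP2, a tetraspan membrane protein, read 420.2, 439 and 362 against 135, 131 and 126 and 218, 328 and 317 in the control, and all 4 of its probe sets passed as higher, at 0.35 to 1.86. PRNP, the prion protein gene, read 1379, 1456 and 1429 against 671, 654 and 642, a difference of 1.10 ± 0.039 (SE). SOCS5, a suppressor of cytokine signalling, read 586, 539 and 525 against 285, 266 and 284, and its control arrays at 391, 305 and 335 were nearer to miR-376a*G.

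The control level showed which form stood apart. Among the 94 features on the lower side by 2-fold or more, the control mean was nearer to miR-376a*G in 80 and nearer to miR-376a*A in 14. It lay within 0.25 of the distance between the forms from miR-376a*G, or beyond it, in 71, and likewise at the miR-376a*A side in 10. Among the 98 features on the higher side by 2-fold or more, the control mean was nearer to miR-376a*A in 81 and nearer to miR-376a*G in 17, with 69 that close to miR-376a*A or beyond it and 7 that close to miR-376a*G or beyond it. In most features that differed at least 2-fold, the form with the lower signal was thus the one away from the control. Both forms are set against the same 3 control arrays here, so these positions are a description without a test.

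**Figure D3:**
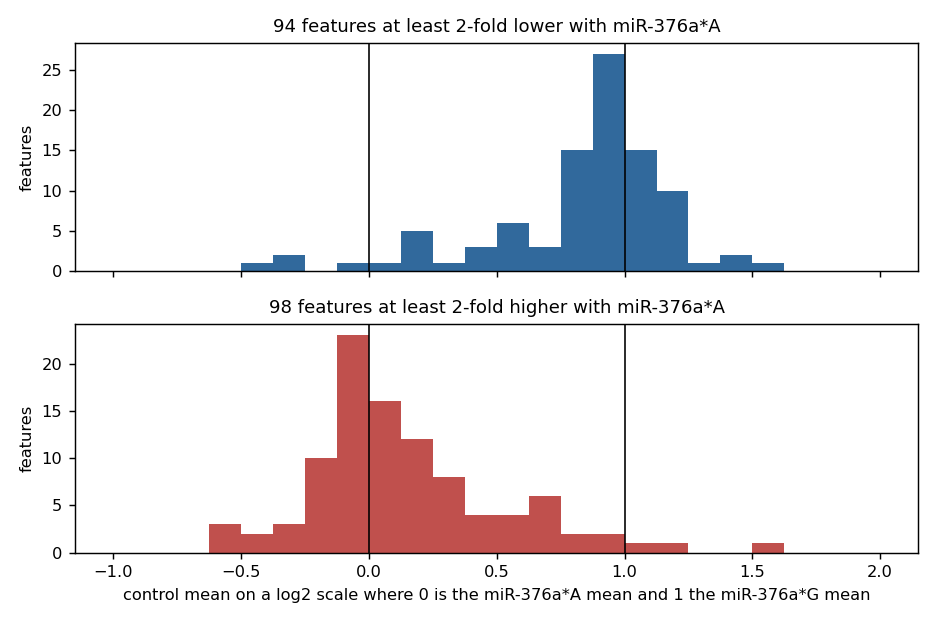
The horizontal axis is the position of the control mean, on the log2(signal + 16) scale, between the miR-376a*A mean (0) and the miR-376a*G mean (1), and the bars count features. The 94 features lower with miR-376a*A (upper panel) gather around 1 and the 98 higher ones (lower panel) around 0.

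RAP2A, a RAP-family GTPase and a published target of the unedited miRNA, was lower with miR-376a*A. It read 589.8, 594 and 513 with miR-376a*A, 1058, 1014 and 993 with miR-376a*G and 991, 888 and 795 in the control. The forms differed by -0.84 ± 0.058 (SE, limma adjusted p = 5.73e-06, 1.79-fold), and the miR-376a*A arrays lay below all 6 others. The study may have picked this gene from the same samples, in which case its direction is no independent evidence. A second bright probe set gave -0.80 and passed, while a dim pair gave 0.07 and 0.09 and did not, so the mean of the 4 probe sets differed by -0.37.

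Among 27 tested genes of RAS and RAP signalling, 6 passed as lower and 3 as higher, with a median of -0.04 against 0.03 over all features. Beside RRAS2, RASSF3 and RAP2A, the lower ones were RAPGEF6 (-0.43 ± 0.055), RAP2B (-0.28 ± 0.041) and RASA2 (-0.21 ± 0.049, SE), named after their values were seen. MAP4K4, a kinase that acts with RAP2 proteins, was higher by 0.43 ± 0.050 (SE) and all 4 of its other probe sets passed as higher. RAP2C, RAP1A and RAP1B stood at -0.04, -0.09 and 0.02 and did not pass. The count of 3 higher genes fell to 1 without the second array of the A form and to 1 with the control arrays in the fit. ADAR, the deaminase gene, was higher by 0.25 ± 0.045 (SE, limma adjusted p = 0.00316), while ADARB1 differed by 0.12 ± 0.123 (SE, limma adjusted p = 0.52), which did not pass.

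Across 21 gene lists, chosen for glioma biology and for what is known of these miRNAs, the 6 with medians farthest from 0 held NF-kB and cytokine genes, integrins, mitosis, hypoxia, axon growth and YAP targets. Each count is to be read against the background of 14.5% higher and 12.6% lower.

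**Figure D4:**
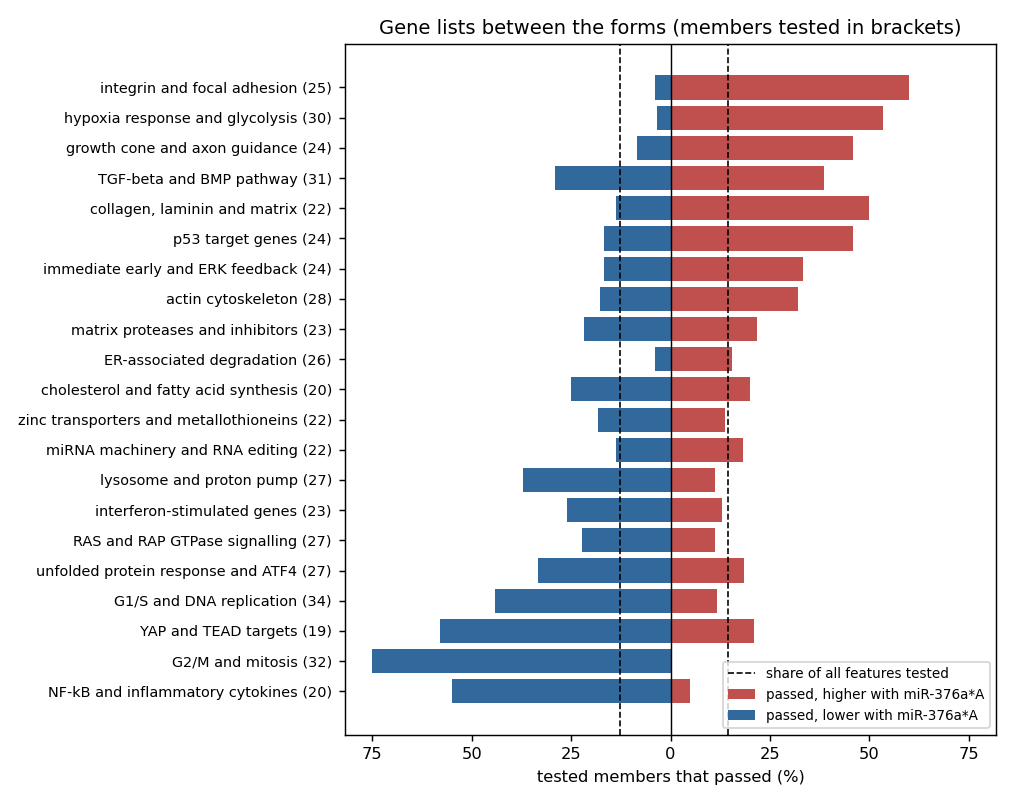
Bars give the percent of tested members of each list that passed as higher (red, to the right) or lower (blue, to the left) with miR-376a*A, ordered by the median difference, and dashed lines mark the share of all 20130 features. The bars of integrin (15 of 25), hypoxia (16 of 30) and matrix genes (11 of 22) reach farthest to the right and those of G2/M (24 of 32), YAP (11 of 19) and NF-kB genes (11 of 20) farthest to the left.

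Genes of G2/M and mitosis were lower with miR-376a*A. Of 32 tested members 24 passed as lower, 0 as higher and 8 did not pass, with a median of -0.27. At an unadjusted limma p under 0.05, 26 were lower and 0 higher, beside 7795 of all 20130 features in either direction. ECT2, an exchange factor that starts the cleavage furrow, read 429, 427 and 396 with miR-376a*A and 722, 753 and 736 with miR-376a*G, a difference of -0.80 ± 0.045 (SE). HMMR, a spindle-associated hyaluronan receptor, read 742, 793 and 809 against 1126, 1133 and 1127, a difference of -0.52 ± 0.042 (SE). In both genes the groups lay apart. CENPE, a kinetochore motor, differed by -0.48 ± 0.042 and CDK1, the kinase that drives entry into mitosis, by -0.40 ± 0.037 (SE). The control arrays read 893, 625 and 711 for ECT2, with miR-376a*G, but 975, 1103 and 1062 for CDK1, with miR-376a*A. Summed over the 32 genes the signal was 22424 to 22708 with miR-376a*A, 26683 to 27114 with miR-376a*G and 21254 to 21880 in the control. Both forms lay above the control arrays, miR-376a*G by more.

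The promoter of ECT2 is shown because it is the mitotic gene of smallest p and holds both motifs that textbooks assign to G2/M genes, the cell cycle homology region TTTGAA and the CCAAT box. Searched on both strands from 250 bases before to 50 after the start, TTTGAA was found in 16 of the 27 tested members with a promoter in the RefSeq table, 16 of the 22 lower ones among them, and in 15.2% of all 35116 promoters. CCAAT was found in 22 of the 27, in 18 of the 22 lower ones and in 34.6% of all. Here and for the motifs below, each member was searched on a single promoter. The share of all counts every promoter in the table, whether its gene was tested or not. The ECT2 promoter lies at chr3:172750476-172750775 on the plus strand of GRCh38.p14, with matches in capitals.
ECT2 promoter: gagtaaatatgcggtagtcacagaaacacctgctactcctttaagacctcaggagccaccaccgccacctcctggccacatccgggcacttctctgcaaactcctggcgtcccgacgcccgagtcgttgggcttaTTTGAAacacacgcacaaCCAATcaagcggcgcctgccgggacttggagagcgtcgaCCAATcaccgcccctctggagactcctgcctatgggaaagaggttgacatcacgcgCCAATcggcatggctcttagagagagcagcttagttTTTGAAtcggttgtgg
A match describes the letters only, and no binding was measured here.

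Genes of G1/S and DNA replication were lower less evenly. Of 34 tested members 15 passed as lower and 4 as higher, with a median of -0.10. Apart from SKP2, CCNE2, the cyclin that acts with CDK2, read 119.7, 136 and 119 with miR-376a*A and 232, 238 and 234 with miR-376a*G, a difference of -0.83 ± 0.061 (SE). CDK4, the G1 kinase, read 1154, 1172 and 1167 against 1569.7, 1535 and 1508, a difference of -0.40 ± 0.035 (SE). CCND1, its cyclin partner, went the other way, at 1782, 1759 and 1711 against 1433, 1432 and 1386, a difference of 0.30 ± 0.036 (SE). With the control arrays in the fit 8 members passed as lower, and between 10 and 15 with 1 array left out at a time.

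Genes of the NF-kB and inflammatory cytokine list, which also holds NF-kB subunits and regulators, were mostly lower with miR-376a*A. Of 20 tested members 11 passed as lower, 1 as higher and 8 did not pass, with a median of -0.37. LIF, a cytokine of the IL-6 family, read 159, 149 and 149 with miR-376a*A and 371, 351 and 377 with miR-376a*G, a difference of -1.19 ± 0.052 (SE), with control arrays at 174, 183 and 168. CXCL1, a neutrophil chemokine, read 52.4, 52.7 and 58.7 against 111, 112 and 125, a difference of -0.90 ± 0.075 (SE). PTGS2, the inducible prostaglandin synthase, read 103, 97.4 and 108 against 195, 180.1 and 202, a difference of -0.81 ± 0.064 (SE). For these 3 genes the miR-376a*G arrays read higher than all 6 other arrays. IL11, another cytokine of the IL-6 family, was the exception, at 214, 222 and 228 with miR-376a*A, 83.5, 87.3 and 98.5 with miR-376a*G and 49.2, 48.1 and 62.0 in the control, a difference of 1.17 ± 0.067 (SE). CCL2, CXCL2, CXCL8, IL1A, TNFAIP3, ICAM1, NFKB1 and RELB completed the lower members, and IL6 stood at -0.19 ± 0.086 (SE) and did not pass.

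The CXCL1 promoter is shown because CXCL1 has the smallest p among the lower members whose promoter holds the NF-kB consensus. That consensus, of 10 letters, was found on either strand in 8 of the 17 tested members with a promoter in the table and in 11.3% of all promoters. Of these 8 matches 4 were in the 8 lower members and the other 4 in members that were not lower. In CXCL1 it matched at 2 overlapping positions, in capitals, at chr4:73869143-73869442 on the plus strand of GRCh38.p14.
CXCL1 promoter: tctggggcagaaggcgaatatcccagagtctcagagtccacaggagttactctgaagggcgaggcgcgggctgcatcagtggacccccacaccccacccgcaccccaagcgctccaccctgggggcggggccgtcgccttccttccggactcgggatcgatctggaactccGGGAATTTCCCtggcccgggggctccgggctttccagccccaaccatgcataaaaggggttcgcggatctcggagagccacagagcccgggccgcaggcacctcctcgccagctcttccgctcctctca
Of the leukocyte markers 4 of 8 were tested, with a summed signal of 112 to 128 with miR-376a*A, 61.0 to 91.3 with miR-376a*G and 82.5 to 96.9 in the control. PTPRC, which marks all leukocytes, was not among those tested, and CSF1R and CD3E passed on the higher side, opposite to most passing members of the NF-kB and cytokine list.

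Targets of YAP and TEAD, which report the Hippo pathway, were lower with miR-376a*A in 11 of 19 tested members and higher in 4, with a median of -0.21. CCN2, a matricellular growth factor, read 170.2, 159 and 166 with miR-376a*A, 403, 442 and 447 with miR-376a*G and 107, 98.2 and 107 in the control. CCN1, its close relative, read 179.9, 204 and 195, 435, 472 and 490.4 and 228, 199 and 233. The differences between the forms were -1.30 ± 0.055 and -1.21 ± 0.061 (SE), and for both genes the miR-376a*G arrays were the highest of the 9. CRIM1 differed by -0.50 ± 0.045 and the receptor tyrosine kinase AXL by -0.48 ± 0.046 (SE), and the other probe set of AXL did not pass. The 4 higher members, named after their values were seen, were F3, LATS2, PTPN14 and TEAD1, at 0.77 ± 0.088, 0.43 ± 0.068, 0.25 ± 0.071 and 0.18 ± 0.040 (SE). With the control arrays in the fit 2 passed as higher.

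Integrin and focal adhesion genes were higher with miR-376a*A. Of 25 tested members 15 passed as higher, 1 as lower and 9 did not pass, with a median of 0.33, or 0.18 when probe sets of a gene were averaged. ITGB3, the beta chain of the vitronectin receptor, read 258, 249.7 and 249 with miR-376a*A and 116, 121 and 116 with miR-376a*G, a difference of 1.01 ± 0.051 (SE), and 438, 341 and 367 in the control. Of the 6 other probe sets of ITGB3, which ranged from 0.13 to 0.68, 3 passed as higher. ITGB1, the common beta chain of fibronectin and collagen receptors, read 2266, 2193 and 1996 against 1522, 1480.2 and 1479.7, a difference of 0.52 ± 0.049 (SE), and all 4 of its probe sets passed as higher. VCL, the adhesion linker vinculin, differed by 0.51 ± 0.046 and FERMT2, the kindlin that activates integrins, by 0.56 ± 0.046 (SE). Summed over the 25 genes the signal was 10228 to 10876 with miR-376a*A, 8064 to 8264 with miR-376a*G and 10250 to 10770 in the control, so here the edited form was the one below the control. The single lower member was ILK at -0.15 ± 0.047 (SE), a call that ended without the second or the third array of the A form or any 1 array of the G form.

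Matrix genes followed in part. Among 22 collagen, laminin and matrix genes 11 passed as higher and 3 as lower, with a median of 0.18, and 7 were higher with the control arrays in the fit. FN1, fibronectin, read 2502, 2318 and 2253 with miR-376a*A and 1849, 1756 and 1801 with miR-376a*G, a difference of 0.38 ± 0.045 (SE), and all 7 of its probe sets passed as higher. FBN1, the microfibril protein fibrillin, differed by 0.59 ± 0.041 and the collagen gene COL5A1 by 0.62 ± 0.062, while its partner chain gene COL5A2 went the other way at -0.55 ± 0.060 (SE). Among 23 genes of matrix proteases and their inhibitors 5 were higher and 5 lower, with a median of 0.03. ADAMTS5, an aggrecanase, read 225, 192 and 201 with miR-376a*A, 631, 618 and 603 with miR-376a*G and 246, 221 and 253 in the control, and all 4 of its probe sets passed as lower. ADAMTS1 and ADAM17, the shedding protease, were lower by -0.85 ± 0.051 and -0.69 ± 0.058 (SE), whereas the inhibitor gene TIMP3 was higher, at 179, 172 and 162 against 73.6, 73.3 and 71.3. The count of 5 higher genes was 3 with the control arrays in the fit.

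Among 28 genes of the actin cytoskeleton 9 were higher and 5 lower, with a median of 0.09. MYH9, the heavy chain of non-muscle myosin IIA, read 363, 364 and 339 with miR-376a*A and 590.1, 611 and 596 with miR-376a*G, a difference of -0.73 ± 0.045 (SE), and 702, 758 and 645 in the control. ROCK2, a kinase that raises myosin contractility, and EZR, which links actin to the membrane, were lower by -0.25 ± 0.043 and -0.34 ± 0.065 (SE), and smooth muscle actin, ACTA2, was higher by 0.46 ± 0.050 (SE). The 9 higher calls were 4 without the second array of either form, 3 with the control arrays in the fit and 5 after centring on the median.

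Growth cone and axon guidance genes were higher with miR-376a*A in 11 of 24 tested members and lower in 2, with a median of 0.23. Beside DPYSL3 and ABL1, GAP43, a growth cone protein, read 164, 169 and 159 with miR-376a*A and 62.9, 52.9 and 51.2 with miR-376a*G, a difference of 1.33 ± 0.076 (SE), and 208, 258 and 262 in the control. EFNB2, an ephrin ligand, read 1038, 997 and 940.3 against 592, 628 and 621, a difference of 0.68 ± 0.047 (SE). The lower members, named after their values were seen, were the ABL1 relative ABL2 at -0.63 ± 0.080 and SEMA3A at -0.38 ± 0.108 (SE). Without the third array of the A form or the second or the third of the G form the lower count was 1, and after centring on the median it was 5. Of 8 neuron markers 4 were tested: SNAP25 and SYT1 were higher by 0.82 ± 0.073 and 0.94 ± 0.099 (SE), GAD1 was lower by -0.52 ± 0.070 (SE) and SLC17A7 did not pass. Their summed signal was 923 to 979 with miR-376a*A, 541 to 628 with miR-376a*G and 515 to 543 in the control, RBFOX3, STMN2, NEFL and NEFM were not among those tested, and the part of these markers in the list's values was not tested.

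Hypoxia and glycolysis genes were higher with miR-376a*A. Of 30 tested members 16 passed as higher, 1 as lower and 13 did not pass, with a median of 0.25. PFKFB4 and PFKFB3 make the sugar phosphate that activates glycolysis. PFKFB4 read 439, 449 and 489.8 with miR-376a*A and 224, 195 and 199 with miR-376a*G, a difference of 1.10 ± 0.063 (SE), although its other probe set did not pass. PFKFB3 read 595, 554 and 544 against 381, 377 and 392, a difference of 0.54 ± 0.047 (SE). NDRG1, a hypoxia-induced gene, read 788, 866 and 804 with miR-376a*A, 419, 365 and 376.1 with miR-376a*G and 737, 810.4 and 653 in the control, a difference of 1.05 ± 0.059 (SE). HK2, the inducible hexokinase, differed by 0.48 ± 0.051 (SE), but of the other tested pair of probe sets 1 passed as lower and the call ended when probe sets were averaged. The members that did not pass include most glycolytic enzymes of the list, among them GAPDH, PGK1, LDHA and ENO1 at 0.07 to 0.14. The single lower member was the glucose transporter SLC2A3 at -0.17 ± 0.045 (SE), a call that ended without the first or the second array of the A form or the second of the G form.

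The PFKFB4 promoter is shown as that of the higher member of smallest p whose promoter holds a core of the hypoxia response element, ACGTG or GCGTG. Such a core was found on either strand in 20 of the 26 tested members with a promoter in the table, in 12 of the 13 higher ones and in 48.4% of all promoters. The promoter lies at chr3:48556754-48557053 on the minus strand of GRCh38.p14, with its 1 match in capitals.
PFKFB4 promoter: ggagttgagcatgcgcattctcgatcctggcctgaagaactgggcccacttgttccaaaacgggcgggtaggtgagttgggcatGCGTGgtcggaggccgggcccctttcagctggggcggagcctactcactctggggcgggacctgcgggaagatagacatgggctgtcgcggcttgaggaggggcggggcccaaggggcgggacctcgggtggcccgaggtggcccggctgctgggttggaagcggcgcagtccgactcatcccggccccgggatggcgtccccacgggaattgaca

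**Figure D5:**
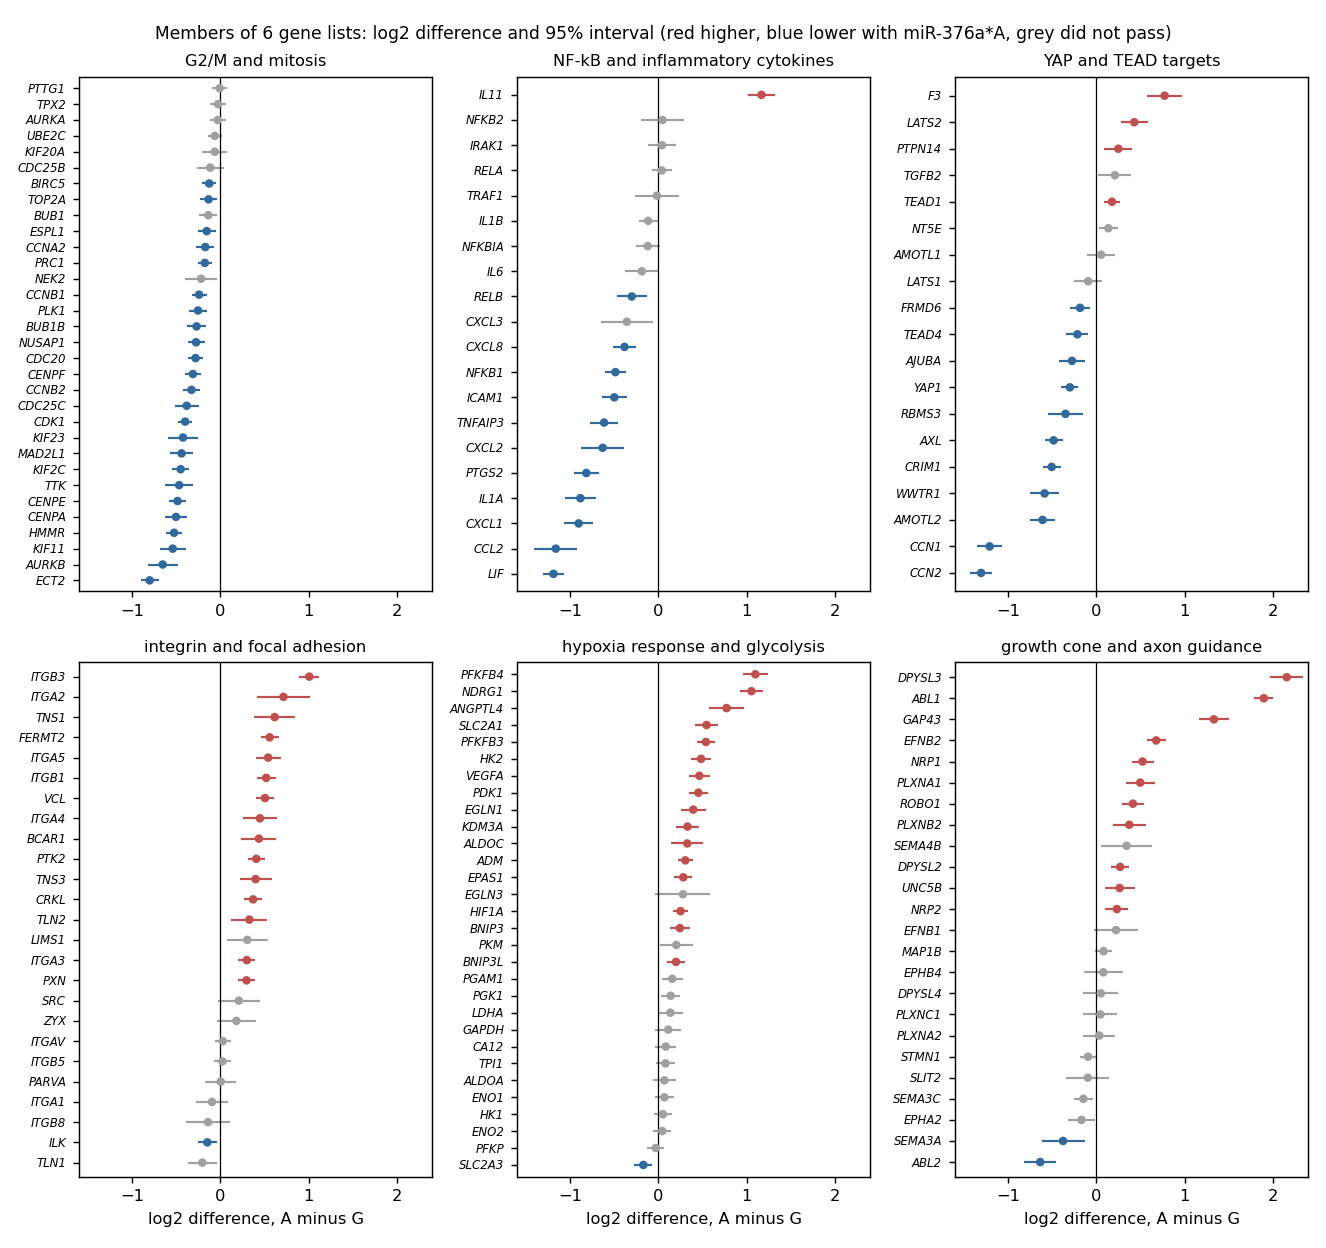
Each point is a tested gene of 6 lists, with its log2 difference, A form minus G form, on the horizontal axis and its 95% interval as a bar (n = 3 arrays per form). The upper lists (G2/M, NF-kB, YAP) lie mostly left of 0 and the lower lists (integrin, hypoxia, growth cone) mostly right of it, with IL11, F3, ILK, SLC2A3 and ABL2 among the members on the other side.

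Target genes of p53 were split by gene. Of 24 tested members 11 passed as higher and 4 as lower with miR-376a*A, with a median of 0.10. TNFRSF10B, a death receptor for TRAIL, read 983, 967 and 985 with miR-376a*A, 405, 369 and 405 with miR-376a*G and 994, 900.2 and 906 in the control, a difference of 1.28 ± 0.046 (SE), and all 4 of its probe sets passed as higher. RRM2B, a ribonucleotide reductase subunit for DNA repair, read 305, 287 and 265 against 93.5, 106 and 119, a difference of 1.31 ± 0.083 (SE). SESN1, a sestrin, was higher by 0.77 ± 0.062 (SE). MDM2, the ubiquitin ligase that limits p53, went the other way, at 362, 334 and 341 against 620.3, 617 and 595 and 431, 355 and 346 in the control, a difference of -0.79 ± 0.046 (SE). Other probe sets of MDM2 at -0.90, -0.83 and -0.61 passed as lower, and those at -0.46, -0.16 and 0.03 did not pass. Between 8 and 10 members passed as higher with 1 array left out at a time, and 7 with the control arrays in the fit.

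Genes of the TGF-beta and BMP pathway differed in both directions, with 12 of 31 higher, 9 lower and a median of 0.20. Beside ACVR1, TGFBR1, the type I receptor for TGF-beta, read 805, 825 and 806 with miR-376a*A and 497, 489 and 536 with miR-376a*G, a difference of 0.66 ± 0.045 (SE). SMAD5, which carries BMP signals to the nucleus, was lower at 334, 317 and 311 against 470.0, 479 and 476, a difference of -0.54 ± 0.045 (SE). TWSG1, an extracellular BMP modulator, read 147, 149 and 121 with miR-376a*A, 262, 276 and 271 with miR-376a*G and 701, 578 and 648 in the control, so both forms lay under the control and miR-376a*A lay lower, by -0.88 ± 0.073 (SE). The other probe set of TWSG1 passed in the opposite direction. The counts depended on single arrays: 7 members were higher without the third array of the A form or the second of the G form, and 5 were lower without the second array of either form.

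Zinc transporters held large single differences in opposite directions. SLC39A10, which imports zinc, read 47.3, 42.9 and 43.2 with miR-376a*A and 199, 203 and 207 with miR-376a*G, a difference of -1.86 ± 0.063 (SE). The importer genes SLC39A14 and SLC39A1 were lower as well, by -0.97 ± 0.042 and -0.75 ± 0.055 (SE), though the other probe set of SLC39A14 did not pass. SLC30A6, which takes part in loading zinc into the Golgi, read 293, 278 and 265 against 54.1, 59.6 and 62.6, a difference of 1.98 ± 0.067 (SE), with 1 of its 2 other probe sets passing as higher. For SLC39A10 the control (198, 151 and 169.8) lay with or near miR-376a*G and for SLC30A6 (316, 269 and 283) with miR-376a*A. Over the 22 tested members 4 were lower and 3 higher, with a median of -0.01, and the higher count was 1 without the first or the third array of the A form or the second or the third of the G form. The metallothionein genes MT1E, MT1F, MT1G, MT1X and MT2A stood at -0.10 to 0.16 and did not pass.

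Lysosome and proton pump genes were lower in 10 of 27 tested members and higher in 3, with a median of -0.02. Beside VMA21, ATP6V1E1, a stalk subunit of the pump, read 821, 833 and 863 with miR-376a*A and 1125, 1099 and 1117 with miR-376a*G, a difference of -0.40 ± 0.038 (SE). TMEM106B, a lysosomal membrane protein, read 297, 269 and 271, 554, 567 and 574 and 134, 113 and 115 in the control, so both forms lay above the control and miR-376a*G lay highest. ATP6V0A1, a membrane subunit, was higher by 0.45 ± 0.074 (SE), a call that ended when probe sets were averaged. The higher count was 1 without any 1 array except the third of the A form.

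In the unfolded protein response and ATF4 list 9 of 27 members were lower and 5 higher, with a median of -0.09. DDIT3, the stress transcription factor CHOP, read 273, 250.3 and 287 with miR-376a*A, 498, 491 and 512 with miR-376a*G and 179, 257 and 245 in the control, a difference of -0.85 ± 0.054 (SE). SLC7A11, the cystine transporter, was lower by -0.73 ± 0.056 (SE). DDIT4, an inhibitor of mTORC1, read 842, 845 and 889 against 459, 431 and 459, a difference of 0.91 ± 0.044 (SE), and ATF6, a stress sensor of the endoplasmic reticulum, was higher by 0.61 ± 0.046 (SE). Without the second array of either form or the third of the G form, 3 members were higher. Among 20 genes of cholesterol and fatty acid synthesis 5 were lower and 4 higher, with a median of 0.00 after rounding. SCD, the stearoyl-CoA desaturase, read 586, 584 and 602 against 395, 379 and 411, a difference of 0.56 ± 0.044 (SE), though none of its 3 other probe sets passed, and the cholesterol carrier gene STARD4 was lower by -0.43 ± 0.054 (SE). The 4 higher calls were 2 without the second array of the A form and 1 without the third array of the A form or the second of the G form.

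Immediate early genes and ERK feedback genes split by family member. Of 24 tested, 8 were higher and 4 lower, with a median of 0.09. DUSP4, a phosphatase that inactivates ERK, read 704, 641 and 682 with miR-376a*A, 371, 368 and 357 with miR-376a*G and 253, 345 and 311 in the control, a difference of 0.86 ± 0.047 (SE). The FOS-family genes FOSL2 and FOSL1 were higher by 0.69 ± 0.053 and 0.61 ± 0.061 (SE). EGR1, an early growth response factor, went the other way, at 150.4, 134 and 146 against 259, 258 and 263, a difference of -0.79 ± 0.056 (SE). All 3 probe sets of EGR1 passed as lower.

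The last 3 lists had medians between -0.03 and 0.02. Among 23 interferon-stimulated genes 6 were lower and 3 higher, with a median of -0.03. OASL and PARP9 were higher by 0.42 ± 0.055 and 0.42 ± 0.057, and HERC5 and IFI44 lower by -0.31 ± 0.068 and -0.22 ± 0.051 (SE). The 6 lower calls were 3 without the second array of the A form or the third of the G form and 2 without the second array of the G form. Among 26 genes of ER-associated degradation 4 were higher and 1 lower, all under 0.25 in size on their brightest probe sets. On these the segregase gene VCP and its inhibitor gene SVIP differed by 0.18 ± 0.043 and -0.22 ± 0.044 (SE). Dimmer probe sets could differ by more. The 3 others of SVIP passed as lower too, at -0.67 to -0.59. DERL2 was higher by 0.14 on its brightest probe set, and its other tested one passed as higher too. That one had mean signals of 153 with miR-376a*A and 57.4 with miR-376a*G. The 4 higher calls were 2 without any 1 array of the A form or the third of the G form. They were 0 without the second array of the G form. With the control arrays in the limma fit 0 of the 26 passed. At an unadjusted limma p under 0.05 in the 6-array fit 9 of the 26 did, beside 7795 of all 20130 features. Among 22 genes of the miRNA machinery 4 were higher and 3 lower, with a median of -0.01. DICER1, which cuts precursor miRNAs, read 612, 595 and 549 with miR-376a*A and 452, 461 and 429 with miR-376a*G, a difference of 0.38 ± 0.052 (SE), and the Argonaute genes AGO1 and AGO3 went opposite ways at 0.40 ± 0.081 and -0.46 ± 0.077 (SE). The lower count was 5 without the first array of the A form and 6 without the first array of the G form. For AGO3 a probe set of like brightness gave -0.05 and did not pass, while those at -0.48 and -0.30 passed as lower. For AGO1 the probe sets at 0.25 and 0.17 did not pass, and that at 0.50 passed as higher.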

How the data were processed

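Total RNA (1 µg per sample) of 100000 transfected cells was labelled with biotin and hybridised to 1 Affymetrix array per sample, per the labels' protocols. The authors deposited linear signal intensity values, 1 per probe set and array. Per the submitters' processing notes GCOS 1.4.0.036 was used, and how it computed and scaled the signals is not given in the sources used here. Each array had a 2% trimmed mean of 100.01, which hides any change common to all transcripts.

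The table holds 54675 probe sets. Without its 62 array controls, 41091 carried 1 symbol, 1801 several and 11721 none. Signals were taken as log2(signal + 16) without further scaling, probe sets under the 40th percentile of the mean over the 6 arrays (signal 11.4) were dropped, and the brightest probe set represented each symbol. limma 3.58.1 in R 4.3.3 (lmFit, eBayes with an intensity trend, two-sided, Benjamini-Hochberg over 20130 features) was fitted to the 6 arrays, with 4 residual degrees of freedom. Calls of further probe sets come from a fit with each probe set on its own. Tested on simulated data with independent errors (20130 features, 200 changed), 88% of 1.5-fold and 100% of 2-fold changes were recovered and 6% of calls were false. Smaller changes were not simulated, so these rates do not carry over to calls under 0.5 on the log2 scale, which were 4184 of the 5448. Promoters and miRNAs come from RefSeq tables for GRCh38.p14.

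The members and lists were chosen with earlier results of these data known, and lists are described by counts and medians without a set test. Of 582 list symbols 551 were matched to the array. Named genes are the 15 largest differences each way among single-symbol genes that passed with arrays apart, the 10 each way with the largest median over probe sets that all passed, up to 4 members of smallest p per list, RAP2A, ADAR and ADARB1, and others that complete a count were named after their values were seen. The rule names 1 more gene, not reported here. Alternatives covered scaling, filter, offset, variance trend, probe set rule, control arrays in the fit, replicate block and each array left out. Python 3.11.15 with pandas 2.3.3 and matplotlib 3.10.9 made the other tables and the plots.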

Additional observations from a re-analysis of the deposited data

How the results depend on the processing

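The count of features that passed as lower with miR-376a*A was 1580 when the control arrays entered the fit, against 2528. The counts at least 2-fold apart moved with the offset added before the logarithm, since it sets how far dim signals can differ: with an offset of 1 they were 235 higher and 152 lower, and with 64 they were 41 higher and 52 lower, against 98 and 94. RAP2A kept its direction and its call under all 16 alternatives, at -0.37 (mean of probe sets) to -0.88 (each array centred on its median). For the other 118 named genes 1885 values were recomputed: 1859 kept their direction and side of the threshold, 26 lost the call (in SVIP, VCP, NPLOC4, DERL2, IFI44, HK2, ELOVL6, AGO3 and ATP6V0A1) and 0 called values changed sign. Replicate numbers are shared between the forms. Deviations from the group mean correlated at r = -0.04, 0.02 and 0.03 in same-numbered arrays and at -0.10 to 0.07 in the others. The labels do not say whether the numbers pair the cultures, and correlations this small cannot settle it. With the replicate block 4976 features passed, 2764 higher and 2212 lower. Of the 11 mesenchymal and glioma markers 7 passed as higher with that block, against 4. Signals near the offset of 16 limit what can be said of dim genes, and 3 arrays per form limit the precision of small differences.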

Other observations

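Several genes outside the lists differed at least 2-fold and are given with their signals, chosen after their values were seen. On the lower side, CENPU, an inner kinetochore subunit, had mean signals of 276 with miR-376a*A, 883 with miR-376a*G and 821 in the control, and MELK, a mitotic kinase, 295, 830.4 and 923. MIS12 and OIP5, which take part in kinetochore assembly, differed by -1.12 ± 0.058 and -1.03 ± 0.057 (SE, log2). CD274, the checkpoint ligand PD-L1, had means of 59.4 with miR-376a*A, 166 with miR-376a*G and 101 in the control, a difference of -1.28 ± 0.092 (SE). The cytokine gene TSLP (-1.15 ± 0.079) and the B-cell factor gene TNFSF13B (-1.20 ± 0.059, SE) were lower too. CSF1, the macrophage growth factor, was higher at 386 against 179.9, a difference of 1.04 ± 0.065 (SE), as was the LIF receptor gene LIFR at 1.34 ± 0.067 (SE), opposite to LIF itself. DKK1, a secreted inhibitor of WNT signalling, was lower at 88.6 against 251, with the control at 105.

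Probe sets of a gene did not always share a direction. Of 6803 genes with at least 2 tested probe sets, 103 held probe sets that passed in opposite directions, and in 4 of them (TMEM39A, RNF141, ACVR2B and WDR37) both differed by at least 0.5 on the log2 scale. In RNF141 a bright probe set gave -1.39 ± 0.071 and a dim one 0.58 ± 0.098 (SE). In TMEM39A the values were -0.73 ± 0.107 and 0.76 ± 0.094 (SE), and in ACVR2B, an activin receptor gene, -0.75 ± 0.101 and 0.51 ± 0.155 (SE). Which transcripts these probe sets detect was not examined here.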
